A study of Mus musculus with 8 samples.

Results

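The 10 genes described here mark oligodendrocyte precursors and their descendants: the transcription factor genes Olig1, Olig2 and Sox10, the receptor genes Pdgfra and Gpr17, the proteoglycan genes Cspg4, Cspg5, Vcan and Ptprz1, and the membrane protein gene Lhfpl3. They were chosen by name, all 10 were found among the 21375 genes of the table, and the RefSeq transcripts of each were summed. RNA was sequenced from about 1000 td-Tomato-positive cells per library, sorted from central amygdala punches of 8 unchallenged male mice, 1 mouse per library. PkcdRed mice (n = 4) carried PKC delta-type::Cre and SstRed mice (n = 4) carried SST::Cre, and all 8 also carried Rosa::loxP-STOP-loxP-td-Tomato, in which Cre removes a stop cassette. The reporter stays on in any cell that has once had Cre, so it marks cells by history. PkcdRed mice were 9 weeks old (replicates 1 and 2) or 18 weeks old (replicates 3 and 4), and SstRed mice 8 weeks (replicates 1 and 2) or 20 weeks (replicates 3 and 4).

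Oligodendrocyte precursors are the dividing glial cells of the adult brain from which myelinating oligodendrocytes form. They carry the PDGF receptor alpha and the NG2 proteoglycan on their surface, lose both as they commit to differentiation, pass through a brief stage that expresses GPR17, and then switch on myelin genes. OLIG1, OLIG2 and SOX10 are kept from the precursor to the myelinating cell, so they mark the whole lineage and not the precursor alone. Some of the 10 genes are also made elsewhere: Pdgfra by fibroblasts, Cspg4 by pericytes, and Ptprz1 and Cspg5 by astrocytes. The series was designed to profile the 2 neuronal populations.

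Depth was very unequal. Totals ran from 964361 to 2522749 estimated counts in the 4 libraries of older mice and from 10316149 to 18242496 in the 4 of younger mice, so age class cannot be told apart from depth. Prkcd stood at 106 to 226 TPM in PkcdRed and 0 to 30.2 TPM in SstRed libraries, with no overlap. Sst stood at 0.209, 223, 4.32 and 13.7 TPM in PkcdRed replicates 1 to 4 and 116 to 296 TPM in SstRed libraries, so PkcdRed replicate 2 lay inside the SstRed range. Neuronal markers were low in all libraries. The 8 listed markers (Snap25, Syt1, Rbfox3, Tubb3, Stmn2, Gad1, Gad2 and Slc32a1) summed to 108 to 573 TPM in PkcdRed and 118 to 507 TPM in SstRed libraries, and Slc32a1, the vesicular GABA transporter, was listed at 0 in 4 of the 8. Microglial markers summed to 29618 to 47907 TPM in PkcdRed and 455 to 5222 TPM in SstRed libraries. Since TPM is scaled to a fixed total, such abundant RNA lowers the TPM of all other genes, and how far it lowered those of the 10 genes was not tested.

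Sequence upstream of the start site is shown for Pdgfra and Vcan, which had the lowest ratios of mean TPM among the 10, PkcdRed over SstRed (0.0310 and 0.00131), and whose windows overlap no exon in GENCODE. The windows are the 250 bases before the start site in the RefSeq promoter table (GRCm38.p6), which held 6 of the 10 genes. That of Pdgfra is chr5:75152001-75152250 on the plus strand and that of Vcan is chr13:89742513-89742762 on the minus strand. Both genes also have annotated transcripts that start farther upstream. 4 letter strings were searched on both strands and would be in capitals: ACAAAG and ACAATG, which are bound by SOX proteins, and the E-boxes CAGCTG and CATATG, which are bound by basic helix-loop-helix proteins.
Pdgfra: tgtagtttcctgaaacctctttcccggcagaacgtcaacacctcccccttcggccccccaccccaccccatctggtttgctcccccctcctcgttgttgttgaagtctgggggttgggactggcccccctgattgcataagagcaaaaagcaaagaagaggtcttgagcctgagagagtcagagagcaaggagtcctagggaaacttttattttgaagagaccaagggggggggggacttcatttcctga
Vcan: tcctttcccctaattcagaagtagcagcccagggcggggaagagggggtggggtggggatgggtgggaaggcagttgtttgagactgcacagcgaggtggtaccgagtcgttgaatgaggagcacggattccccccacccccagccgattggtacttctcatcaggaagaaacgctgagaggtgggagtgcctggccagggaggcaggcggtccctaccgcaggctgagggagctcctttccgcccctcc
Neither window held any of the 4 strings, and neither did those of Cspg4 and Ptprz1. The Olig2 window held ACAATG once, on the other strand, and the Lhfpl3 window held CAGCTG at 2 places. Of all 32851 windows of this length, 16.5% held ACAAAG, 10.7% held ACAATG, 13.0% held CAGCTG and 3.46% held CATATG, so 37.3% held at least 1 of them. The absence of a string says only that these letters are not in this window.

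The 10 genes were very unevenly spread over the libraries. Their summed level was 941, 119, 87.2 and 119 TPM in PkcdRed replicates 1 to 4, and 417, 3287, 596 and 202 TPM in SstRed replicates 1 to 4. SstRed replicate 2 was the highest library for each of the 10 genes, whereas it was the highest for 19.6% of all 11370 genes tested. PkcdRed replicate 1 came next in the sum, and the highest library held 37.7 times the level of the lowest, PkcdRed replicate 3. The mean was 316 ± 416 TPM in PkcdRed and 1125 ± 1450 TPM in SstRed libraries (SD, n = 4 each), so in both populations the SD exceeded the mean. The sum is given as a description, without a test. The ratio of these means, PkcdRed over SstRed, was 0.281, and it was 0.782 without SstRed replicate 2 and 0.0963 without PkcdRed replicate 1. Over the 8 libraries the coefficient of variation of the 10 genes had a median of 158% (74.8% for Ptprz1 to 232% for Gpr17), against a median of 87.1% for all tested genes, with quartiles of 62.1% and 115%. In bulk RNA fewer cells of a type and less RNA per cell cannot be told apart.

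**Figure D1:**
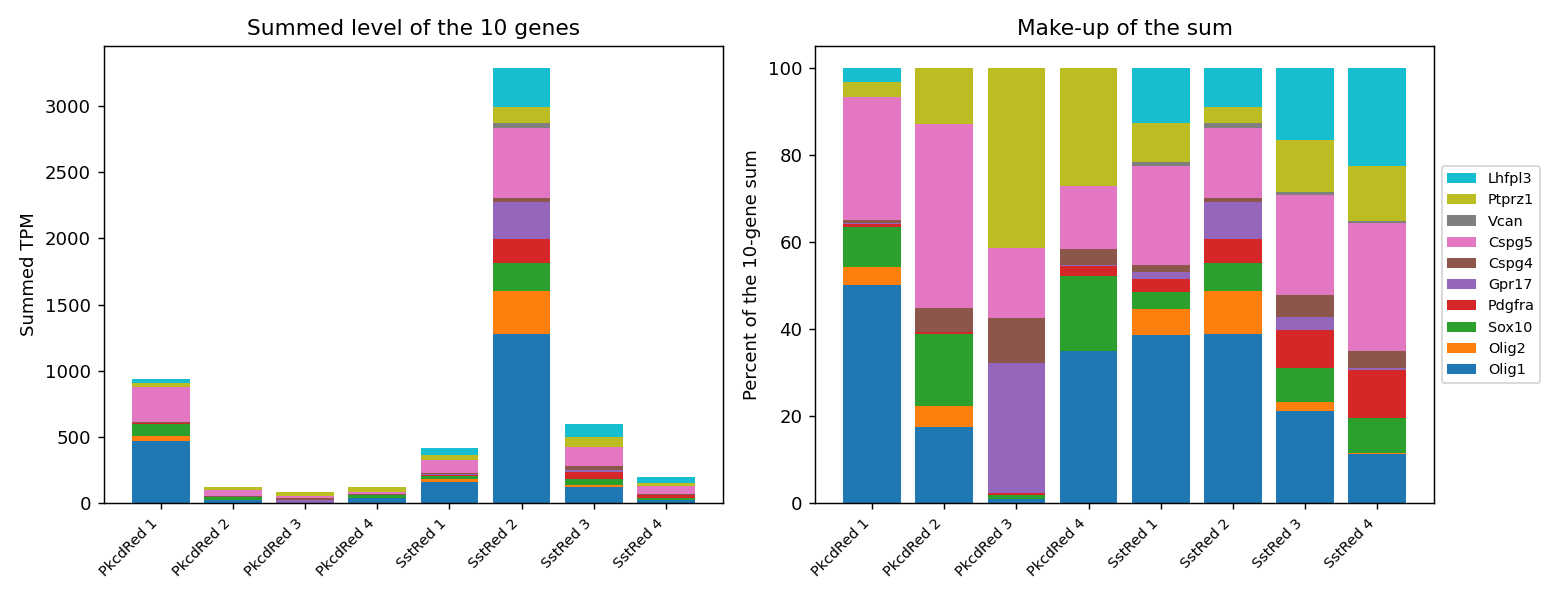
Summed TPM of the 10 genes in each library (left) and the percent of that sum from each gene (right), with PkcdRed libraries left of SstRed libraries. SstRed replicate 2 reached 3287 TPM, PkcdRed replicate 1 reached 941 TPM, and the other libraries held 87.2 to 596 TPM.

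The make-up of the sum differed between libraries as well. Olig1 gave 50.02% of it in PkcdRed replicate 1 and 38.9% in SstRed replicate 2, and it was the top gene in 4 of the 8 libraries. Cspg5 led in PkcdRed replicate 2 (42.2%) and in SstRed replicates 3 and 4 (22.9% and 29.4%). Ptprz1 led in PkcdRed replicate 3 (41.4%), where Olig1 gave 1.01%. All 10 genes had reads in PkcdRed replicate 1 and in each SstRed library, and 7 of 10 had reads in PkcdRed replicates 2, 3 and 4. Reads of the 10 genes numbered 31522, 3420, 313 and 459 in PkcdRed replicates 1 to 4 and 15510, 95971, 2259 and 1334 in SstRed replicates 1 to 4, so the 18-week PkcdRed values rest on few reads.

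The transcription factors were highest in 1 library of each population. Olig1, a basic helix-loop-helix factor of the whole lineage (chromosome 16, 91269769 to 91271939, GRCm38), stood at 471, 20.9, 0.877 and 41.7 TPM in PkcdRed replicates 1 to 4 and at 161, 1279, 126 and 22.9 TPM in SstRed replicates 1 to 4. PkcdRed replicate 1 lay above 3 of the 4 SstRed libraries, and PkcdRed replicate 3 held 1 read. Olig2, its neighbour on the chromosome (91225550 to 91228677) and the factor that specifies the lineage, stood at 39.1, 5.65, 0 and 0 TPM in PkcdRed libraries and at 25.1, 323, 12.3 and 0.280 TPM in SstRed libraries. The 2 zeros allow up to 2.32 and 1.47 TPM at 3 reads, so they do not lie below SstRed replicate 4, which held 1 read. Sox10, an HMG-box factor needed for terminal differentiation (chromosome 15, 79154913 to 79164490), stood at 87.7, 19.7, 0.688 and 20.5 TPM in PkcdRed libraries and at 16.5, 208, 47.1 and 16.5 TPM in SstRed libraries. PkcdRed replicates 2 and 4 were above SstRed replicates 1 and 4. The edgeR log2 fold changes, PkcdRed minus SstRed, were -1.53 ± 1.04 for Olig1 (SE, adjusted p 0.868), -3.62 ± 1.34 for Olig2 (adjusted p 0.526) and -1.16 ± 0.97 for Sox10 (adjusted p 0.906). Each of the 3 overlapped between the populations. Without SstRed replicate 2 the mean TPM of PkcdRed libraries was 1.29 times that of SstRed libraries for Olig1 and 1.21 times for Sox10, while the ratios over all libraries were 0.336 and 0.446. For Olig2 that ratio was 0.890 without SstRed replicate 2 and 0.124 over all libraries.

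**Figure D2:**
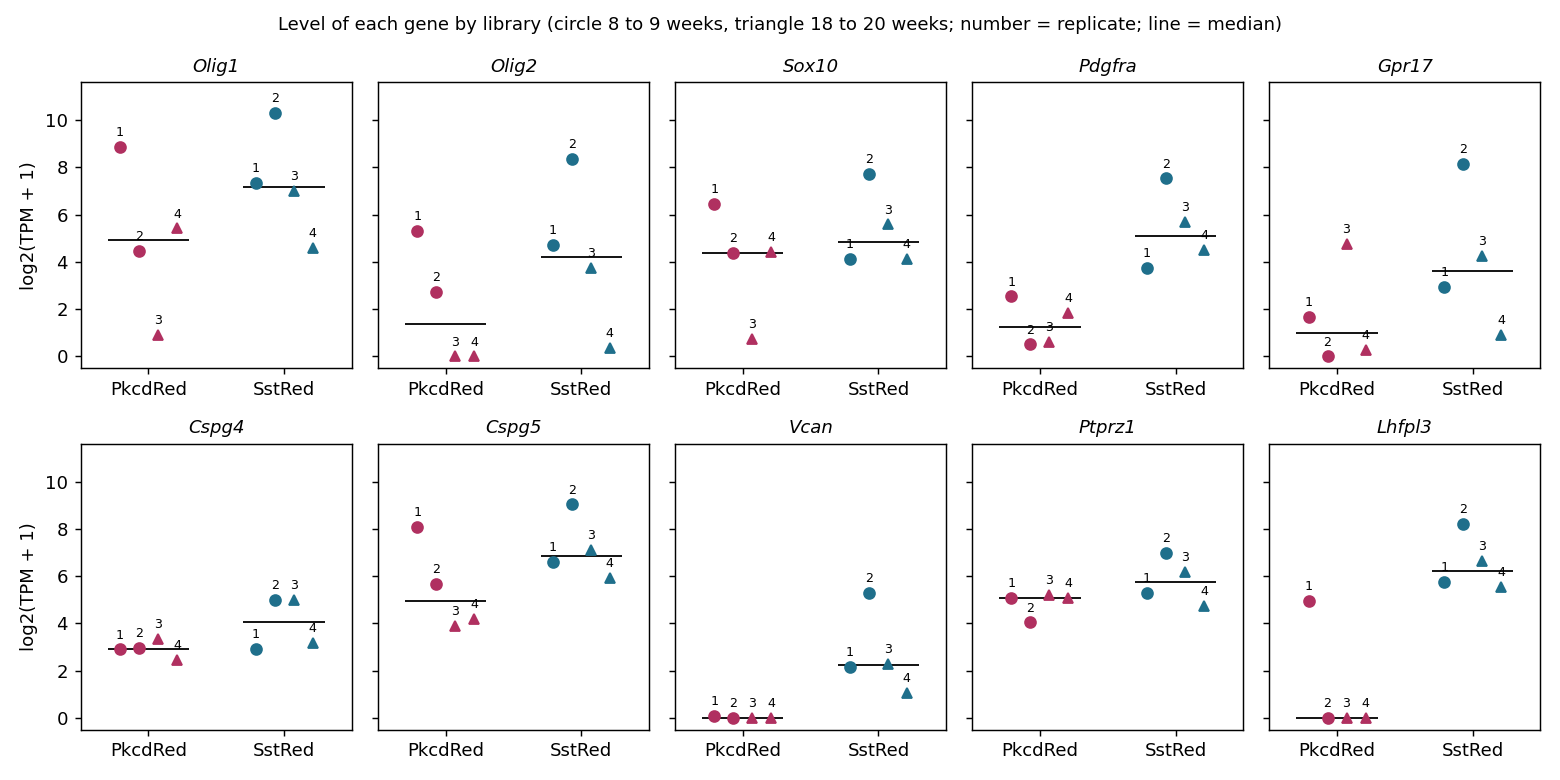
Level of each gene as log2(TPM + 1) in the 4 PkcdRed (left) and 4 SstRed libraries (right). Circles are mice of 8 to 9 weeks, triangles those of 18 to 20 weeks, numbers are replicates and lines are medians; Pdgfra, Vcan and Lhfpl3 are the genes whose PkcdRed points all lie below the SstRed points.

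Pdgfra separated the populations. This receptor for PDGF-A, the mitogen of precursors (chromosome 5, 75151322 to 75198206), stood at 4.82, 0.423, 0.544 and 2.59 TPM in PkcdRed replicates 1 to 4 and at 12.5, 185, 50.9 and 21.9 TPM in SstRed replicates 1 to 4. Every PkcdRed library lay below every SstRed library, on 2 to 367 reads against 222 to 10761. The means were 2.09 ± 2.07 TPM in PkcdRed and 67.5 ± 79.8 TPM in SstRed libraries (SD, n = 4 each), and the SstRed mean was 28.5 ± 20.0 TPM without replicate 2 (SD, n = 3). PkcdRed minus SstRed came to -4.73 ± 0.99 on the log2 scale (SE, edgeR adjusted p 0.103), which did not pass over all genes. It passed in 2 of 21 alternatives, edgeR with no filter (adjusted p 2.83e-06) and DESeq2 (3.80e-05), and over all of them the adjusted p was 2.83e-06 to 0.772. Fibroblasts also make Pdgfra. Of the 6 tested fibroblast markers 3 (Col1a1, Col1a2 and Igf2) lay lower in every PkcdRed than in every SstRed library. That was so for 3.04% of all genes tested. For Col1a1 the highest PkcdRed value was 1.29 TPM and the lowest SstRed value 1.32 TPM. The 7 fibroblast markers (Col1a1, Col1a2, Col3a1, Dcn, Lum, Igf2 and Slc6a13) summed to 4.399 to 77.6 TPM in PkcdRed and 41.1 to 818 TPM in SstRed libraries. Dcn was listed at 0 in PkcdRed replicates 1 and 2 and SstRed replicate 1, and Lum in PkcdRed replicates 1, 2 and 3 and SstRed replicates 1 and 2. Their part in the Pdgfra values was not tested.

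Gpr17 did not separate them. This receptor of committed precursors (chromosome 18, 31942999 to 31949890) stood at 2.18, 0, 26.0 and 0.224 TPM in PkcdRed libraries and at 6.71, 280.2, 18.0 and 0.899 TPM in SstRed libraries. PkcdRed replicate 3, with the lowest Olig1 and Sox10, had more Gpr17 than 3 of the SstRed libraries. SstRed replicate 2 held 83.8% of the total of all 8 libraries, the largest such share among the 10 genes. The log2 fold change was -3.11 ± 3.03 (SE, edgeR adjusted p 0.922). Without 1 library it ran from -6.47 (without PkcdRed replicate 3) to -0.88 (without PkcdRed replicate 2), and it was -0.998 without PkcdRed replicate 1 and -0.98 without SstRed replicate 2. It was -5.20 without SstRed replicate 3 and -5.28 without SstRed replicate 4. The ratio of mean TPM, PkcdRed over SstRed, was 0.0929 over all libraries and 0.834 without SstRed replicate 2. The gene overlaps Lims2 on the opposite strand, and the part of its reads that belongs to Lims2 was not tested.

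Among the proteoglycans the listed values of Vcan did not overlap between the populations, and those of the other 3 did. Vcan, a secreted hyaluronan-binding core protein (chromosome 13, 89655309 to 89743027), stood at 0.0605, 0, 0 and 0 TPM in PkcdRed replicates 1 to 4 and at 3.46, 37.7, 3.83 and 1.06 TPM in SstRed replicates 1 to 4. PkcdRed libraries held 3 reads in all, each in replicate 1, and SstRed libraries 2118, of which 1934 were in replicate 2. The 3 zeros allow up to 0.114, 1.46 and 0.927 TPM at 3 reads, and the limit of PkcdRed replicate 3 lies above SstRed replicate 4, so those 2 libraries are not told apart at this depth. Pooled over libraries, the PkcdRed read rate was 0.00157 of the SstRed rate, with a 95% exact interval of 0.000323 to 0.00459 that covers counting error alone. The fitted log2 fold change was -9.23 ± 2.23 (SE, edgeR adjusted p 0.187). It passed with no filter (adjusted p 0.0356) and in DESeq2 (8.64e-05), over a range of 8.64e-05 to 0.772 in 16 alternatives. Cspg4, the NG2 proteoglycan of precursors and pericytes (chromosome 9, 56865104 to 56899870), was the most even of the 10 in PkcdRed libraries, at 6.46, 6.68, 9.03 and 4.47 TPM, and stood at 6.56, 31.1, 30.6 and 7.91 TPM in SstRed libraries. The populations overlapped, with a log2 fold change of -1.36 ± 0.74 (SE, edgeR adjusted p 0.815). Pericyte markers ran from 244 to 4386 TPM in PkcdRed and 2399 to 11277 TPM in SstRed libraries over 8 genes. Of these 0 passed in edgeR, against 0.281% of all genes tested, and 4 had an unadjusted p under 0.05, against 6.68%. Vtn, Higd1b and Rgs5, the most abundant of the 8, stood at 47.4, 152 and 23.7 TPM in PkcdRed replicate 2. In SstRed replicate 2 they stood at 1652, 245 and 257 TPM. Anpep was listed at 0 in PkcdRed replicate 2, and Abcc9 stood at 0.0157 TPM in SstRed replicate 2. Their part in the Cspg4 values was not tested.

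Cspg5, a transmembrane proteoglycan also known as neuroglycan C (chromosome 9, 110243783 to 110262576), stood at 267, 50.2, 13.97 and 17.1 TPM in PkcdRed libraries and at 95.0, 522, 137 and 59.2 TPM in SstRed libraries. PkcdRed replicate 1 was above 3 SstRed libraries, and the other 3 PkcdRed libraries were below all 4. Ptprz1, a receptor tyrosine phosphatase that carries chondroitin sulphate (chromosome 6, 22875315 to 23052916), stood at 32.5, 15.4, 36.1 and 32.4 TPM in PkcdRed libraries and at 38.0, 124, 71.3 and 25.7 TPM in SstRed libraries. Its coefficient of variation over the 8 libraries, 74.8%, was the lowest of the 10 genes, and only SstRed replicate 4 fell inside the PkcdRed range. The log2 fold changes were -1.67 ± 0.68 for Cspg5 (SE, edgeR adjusted p 0.637) and -1.02 ± 0.54 for Ptprz1 (adjusted p 0.803). The ratio of mean TPM of Cspg5, PkcdRed over SstRed, was 0.429 over all libraries and 0.900 without SstRed replicate 2. Astrocytes make both genes, and the 10 astrocyte markers summed to 388 to 4258 TPM in PkcdRed and 2820 to 7359 TPM in SstRed libraries. Aldoc, Slc1a3 and Gja1, the most abundant of the 10, stood at 143, 90.4 and 14.9 TPM in PkcdRed replicate 2. In PkcdRed replicate 3 they stood at 2289, 1007 and 177 TPM. Aldh1l1 was listed at 0 in PkcdRed replicate 2 and Slc4a4 at 0 in PkcdRed replicate 3. 0 of the 10 markers passed in edgeR, against 0.281% of all genes tested, and 1 had an unadjusted p under 0.05, against 6.68%. PkcdRed replicate 2, lowest in the astrocyte sum, was also lowest in Ptprz1, while PkcdRed replicate 3, at 4258 TPM, was lowest in Cspg5. The part of astrocyte RNA was not tested.

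Lhfpl3, a membrane protein of the LHFPL family that is used as a precursor marker (chromosome 5, 22746054 to 23275597), stood at 29.9, 0, 0 and 0 TPM in PkcdRed replicates 1 to 4 and at 52.6, 296, 99.0 and 45.4 TPM in SstRed replicates 1 to 4. All 4 SstRed libraries were above all 4 PkcdRed libraries. The 980 PkcdRed reads were all in replicate 1, and the zeros of the other 3 libraries allow up to 0.148, 1.90 and 1.20 TPM at 3 reads, below each SstRed value. The means were 7.47 ± 14.9 TPM in PkcdRed and 123 ± 118 TPM in SstRed libraries (SD, n = 4 each), and 65.7 ± 29.1 TPM in SstRed libraries without replicate 2 (SD, n = 3). The log2 fold change was -5.24 ± 1.76 (SE, edgeR adjusted p 0.448). Without PkcdRed replicate 1 the PkcdRed libraries are all at 0, so the fold has no finite value and the edgeR call there (adjusted p 0.0377) is not read as a result: it is the 1 gene called lower of 10722 tested, or 0.00933%. The difference passed with no filter (1.17e-05) and in limma on log2(TPM + 1) (0.0472), over a range of 1.17e-05 to 1.00 in 21 alternatives.

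Read together, 0 of the 10 genes passed the edgeR test between PkcdRed and SstRed libraries at an adjusted p of 0.05, where 0.281% of the 11370 genes tested did (32 genes, all higher in PkcdRed libraries). At an unadjusted p under 0.05 there were 5 of 10, Pdgfra, Cspg5, Olig2, Vcan and Lhfpl3, against 6.68% of all genes tested. DESeq2 called 2 of 10 (Pdgfra and Vcan) towards lower values, against 0.809% of all genes tested, limma on log2(TPM + 1) called 1 (Lhfpl3) against 0.0792%, edgeR with no filter called 3 (Pdgfra, Vcan and Lhfpl3) against 0.299%, and limma-voom and limma on log2(TPM + 0.1) called 0. The 3 genes whose PkcdRed libraries all lay below the SstRed libraries compare with 3.04% of all genes tested, and 0 of 10 lay above them throughout, against 3.87%. All 10 fitted values were below 0, with a median of -2.39, while 52.8% of all genes tested were below 0, with a median of -0.08. The count of genes below 0, the median and the count of 3 genes lend no support of their own. The Vcan zeros do not place PkcdRed replicate 3 below SstRed replicate 4. Vcan also entered the test through its SstRed libraries alone, since 0 PkcdRed libraries and 4 SstRed libraries reached the filter level of 1.56 CPM, and Lhfpl3 through 1 and 4. The genes also share libraries: over the 45 pairs of genes the Pearson r of log2(TPM + 1) across the 8 libraries had a median of 0.716 (0.258 to 0.945), given as a description.

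**Figure D3:**
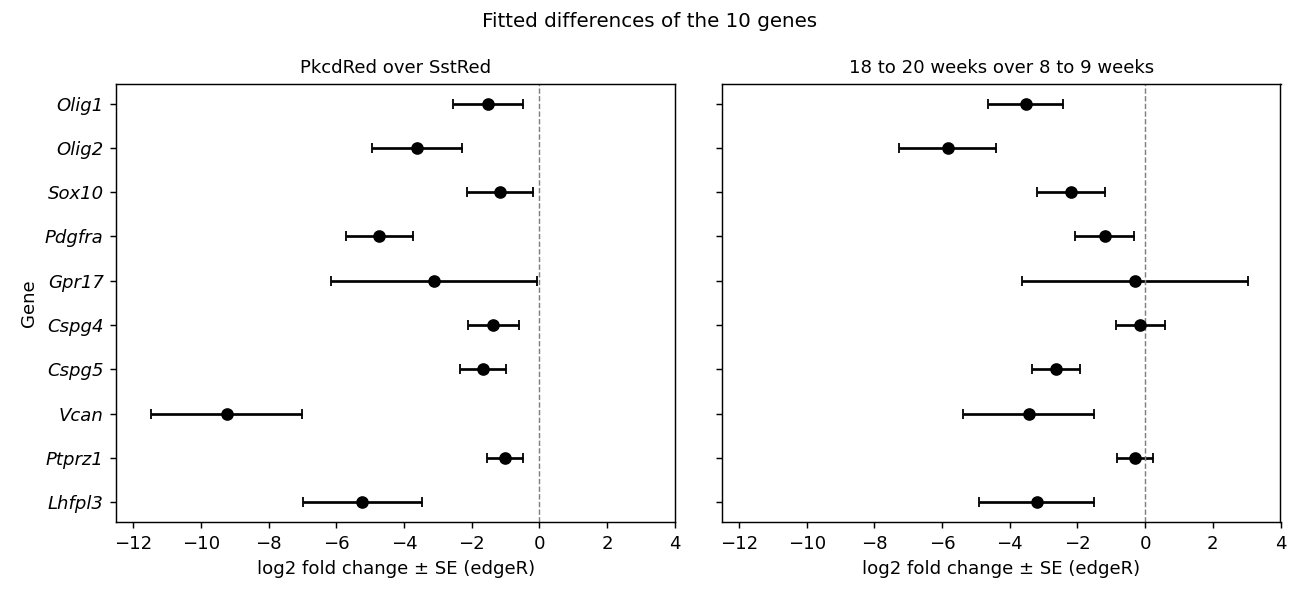
Fitted log2 fold change with its SE for each of the 10 genes, PkcdRed over SstRed on the left and 18 to 20 weeks over 8 to 9 weeks on the right. All points lie below 0 in both panels, and 0 of the 10 genes had an edgeR adjusted p under 0.05 in either; the points of Gpr17, Cspg4, Ptprz1 and Pdgfra in the right panel, and that of Gpr17 in the left, turned above 0 in at least 1 alternative.

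The same fit set older against younger mice, which differ in depth too. Olig2 stood at 0, 0, 12.3 and 0.280 TPM in the 4 older libraries (PkcdRed and SstRed replicates 3 and 4) and at 39.1, 5.65, 25.1 and 323 TPM in the 4 younger ones, with a log2 fold change, older minus younger, of -5.83 ± 1.43 (SE, edgeR adjusted p 0.203). Olig1 averaged 47.9 ± 54.7 TPM in older and 483 ± 563 TPM in younger mice (SD over 4 libraries each), a fitted difference of -3.53 ± 1.12 (SE, edgeR adjusted p 0.393). Cspg5 averaged 56.7 ± 57.1 TPM in older and 234 ± 214 TPM in younger mice, a fitted difference of -2.63 ± 0.70 (edgeR adjusted p 0.249). Cspg4 averaged 13.0 ± 11.9 TPM in older and 12.7 ± 12.3 TPM in younger mice, while its fitted value was -0.14 ± 0.73 and turned above 0 in 5 alternatives. 0 of the 10 genes passed in edgeR, against 0.0616% of all genes tested (0.0352% higher and 0.0264% lower in older mice), and 4 had an unadjusted p under 0.05 (Cspg5, Olig1, Olig2 and Sox10), against 8.36%. DESeq2 called 3 (Cspg5, Olig1 and Olig2; adjusted p 0.0116, 0.0256 and 0.000781) towards lower values in older mice, against 2.78% of all genes tested, and edgeR with no filter called these and Lhfpl3, against 0.786%. limma on log2(TPM + 1) called 0, against 0.308%, and limma-voom called 0. The older and younger libraries overlapped for each of the 10 genes, while 3.52% of all genes tested lay lower and 4.14% higher in every older library.

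The difference between populations was also fitted within each age class. For Pdgfra it was -5.02 ± 1.47 at 8 to 9 weeks and -4.41 ± 1.46 at 18 to 20 weeks (SE, edgeR adjusted p 0.513 and 0.846). For Gpr17 it was -6.80 ± 2.69 at 8 to 9 weeks and 0.64 ± 2.13 at 18 to 20 weeks (SE, edgeR adjusted p 0.614 and 1.00). At 8 to 9 weeks 0 of the 10 passed in edgeR, as 0% of all genes tested did, and 3 had an unadjusted p under 0.05 (Pdgfra, Gpr17 and Vcan), against 6.88%. At 18 to 20 weeks 0 passed, against 0.0704%, and 4 had an unadjusted p under 0.05 (Pdgfra, Cspg5, Olig2 and Lhfpl3), against 4.95%. In the test of the interaction itself 0 of the 10 genes passed in edgeR, as 0% of all genes tested did, and 1 had an unadjusted p under 0.05 (Gpr17, interaction 7.44 ± 3.30, edgeR adjusted p 1.00), against 4.14% of all genes tested. DESeq2 called 0 of the 10, against 0.748%, and edgeR with no filter called Gpr17 (0.147% of all genes tested were called there). Each age class held 2 libraries of each population.

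Other genes of the lineage were set beside the 10. A list of 10 further precursor genes, among them C1ql1, a secreted C1q-like protein, Neu4, a sialidase, and Rlbp1, a retinoid-binding protein, summed to 65.9, 24.9, 50.2 and 16.1 TPM in PkcdRed replicates 1 to 4 and 123, 1019, 191 and 87.0 TPM in SstRed replicates 1 to 4. All PkcdRed sums lay below all SstRed sums. Of the list's 8 tested genes only 1 (Pcdh15) lay lower in every PkcdRed than in every SstRed library, against 3.04% of all genes tested. 0 of the 8 passed in edgeR, against 0.281% of all genes tested, and 3 had an unadjusted p under 0.05, against 6.68%. The median log2 fold change was -3.42, against -0.08 for all genes tested. Neu4 stood at 0 to 4.82 TPM in PkcdRed and 2.81 to 189.5 TPM in SstRed libraries (log2 fold change -5.62 ± 1.39 SE, edgeR adjusted p 0.198). Genes of committed precursors and newly formed oligodendrocytes, with Bcas1, Nkx6-2 and Zfp488 the most abundant, summed to 399 to 575 TPM in PkcdRed and 242 to 1494 TPM in SstRed libraries. 0 of those 10 passed, against 0.281% of all genes tested, and the median was -0.23. Only 1 of them (Nkx2-2) lay lower in every PkcdRed than in every SstRed library, against 3.04% of all genes tested. Myelin genes, among them Mbp and Cnp, summed to 11831 to 30086 TPM in PkcdRed and 11907 to 61681 TPM in SstRed libraries, again highest in SstRed replicate 2. 0 of those 12 passed, against the same 0.281%, and the median was -0.65. As a percent of the myelin sum, the 10 precursor and lineage genes came to 4.89%, 1.01%, 0.377% and 0.396% in PkcdRed replicates 1 to 4 and 3.33%, 5.33%, 2.28% and 1.69% in SstRed replicates 1 to 4. PkcdRed replicates 2, 3 and 4 were below all SstRed libraries in that percent, and PkcdRed replicate 1 was above 3 of them.

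**Figure D4:**
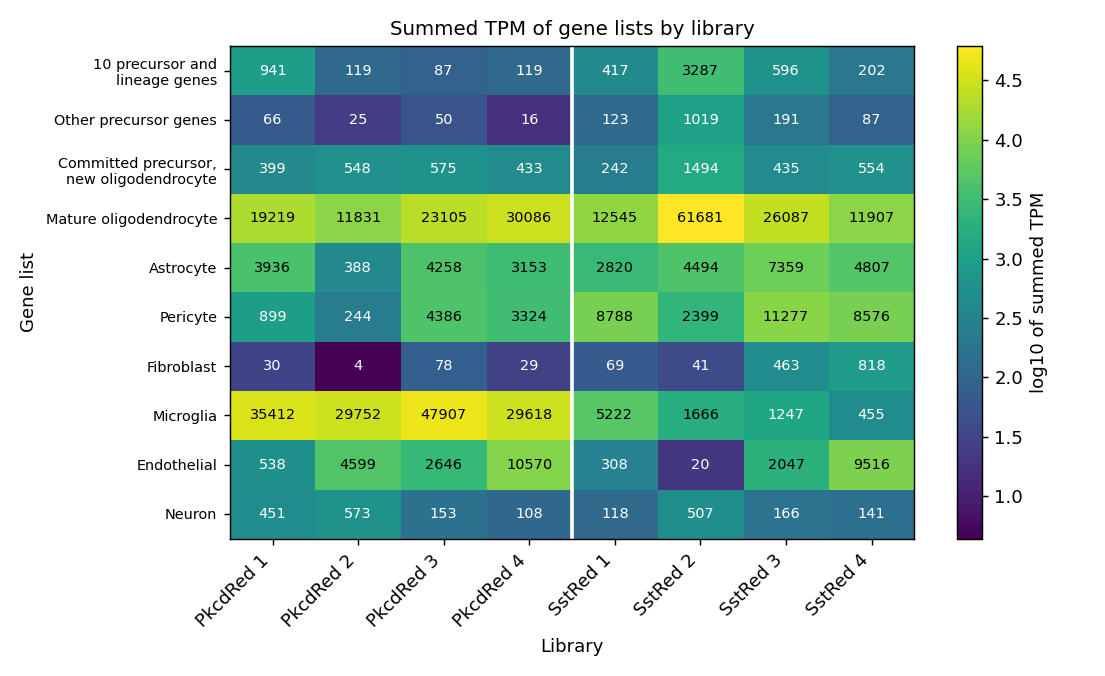
Summed TPM of gene lists in each library, coloured by its log10, with the 4 PkcdRed libraries left of the white line and the 4 SstRed libraries right of it. SstRed replicate 2 was highest in the 4 oligodendrocyte-lineage rows and lowest in the endothelial row, with 20.1 TPM.

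Ligands and partners of these receptors were measured as well. Pleiotrophin (Ptn) and midkine (Mdk), growth factors that bind PTPRZ1, stood at 466 ± 291 and 76.4 ± 62.7 TPM in PkcdRed and 1458 ± 629 and 408 ± 101 TPM in SstRed libraries (SD, n = 4 each). Cntn1, an adhesion molecule that binds PTPRZ1, stood at 10.7 ± 7.78 TPM in PkcdRed and 73.8 ± 67.6 TPM in SstRed libraries (SD, n = 4 each). PkcdRed libraries lay below SstRed libraries throughout for these 3 of the 4 tested genes, against 3.04% of all genes tested. For Ptn the nearest values were 716 TPM in PkcdRed replicate 4 and 739 TPM in SstRed replicate 2. Of Ptn, Mdk and Cntn1 0 passed in edgeR (adjusted p 0.448, 0.788 and 0.233). Of the PDGF family Pdgfa, the ligand of the alpha receptor, stood at 24.2 ± 18.3 TPM in PkcdRed and 48.9 ± 38.1 TPM in SstRed libraries, and Pdgfb at 46.9 ± 37.8 and 4.59 ± 7.34 TPM (SD, n = 4 each). Pdgfrb, the beta receptor of pericytes, stood at 42.1 ± 27.5 and 97.3 ± 93.7 TPM, and 0 of the 3 tested members passed in edgeR. Bcan and Hapln2, a proteoglycan and a link protein of the brain matrix, were highest in SstRed replicate 2 (586 and 407 TPM) and next highest in SstRed replicate 3 (334 TPM) and PkcdRed replicate 1 (173 TPM). 0 of the 4 tested genes of that list and 0 of the 3 Sox genes (Sox5, Sox8 and Sox9) passed. At an unadjusted p under 0.05 these 4 lists had 2 of 4 (PTPRZ1 ligands and partners), 1 of 3 (PDGF family), 0 of 4 and 0 of 3. The 2 were Ptn and Cntn1, both lower in PkcdRed libraries. The 1 was Pdgfb, which was higher in PkcdRed libraries (log2 fold change 3.61 ± 1.63 SE). Over all genes tested 0.281% passed in edgeR and 6.68% had an unadjusted p under 0.05.

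The estimated transcripts of 3 genes differed between libraries. Versican is made in forms with or without its 2 large glycosaminoglycan-bearing regions, which changes transcript length. In SstRed replicate 2 the 4335-base transcript had 50.9%, the 7215-base transcript 47.5% and the 9552-base transcript 1.56% of Vcan TPM. In SstRed replicates 1 and 3 the 4335-base transcript had 100%, on 161 and 15 reads, and in replicate 4 it had 88.7%, on 8 reads of the gene. The longest transcript, of 12432 bases, held under 1 read in every library. For Cspg5 the 3871-base transcript had 16.8% in PkcdRed replicate 1, 5.64% in SstRed replicate 1 and 30.6% in SstRed replicate 3, and was listed at 0 in the other 5 libraries, which included the deepest in Cspg5 reads, SstRed replicate 2 (17208 reads). For Lhfpl3 the 2981-base transcript had 6.43% in PkcdRed replicate 1 and 16.5% in SstRed replicate 1. Reads shared between transcripts of a gene were divided by the authors' tool, so these shares are estimates.

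**Figure D5:**
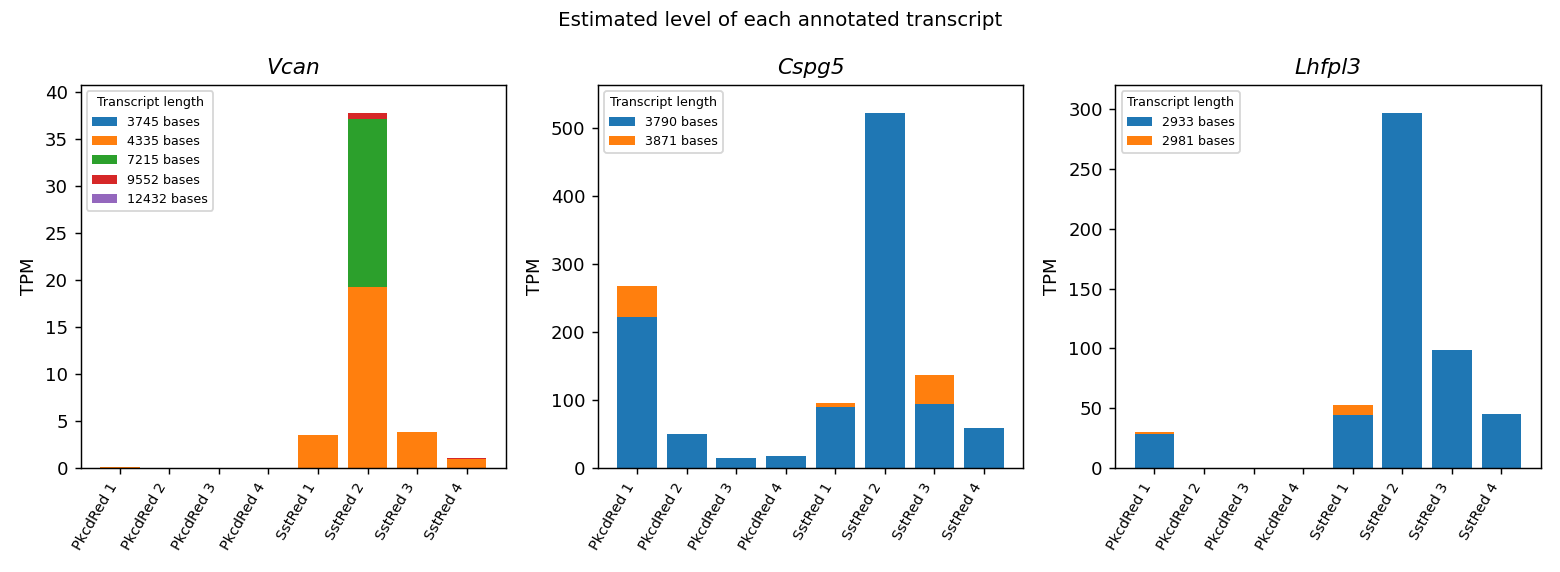
Estimated TPM of each annotated transcript of Vcan, Cspg5 and Lhfpl3, stacked by library, with PkcdRed libraries left of SstRed libraries. The 7215-base Vcan transcript appears in SstRed replicate 2 alone, at 17.9 TPM. That library held 1934 reads of the gene, against 161, 15 and 8 in SstRed replicates 1, 3 and 4.

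The genes most like the 10 in pattern were found by Pearson r over the 8 libraries between log2(TPM + 1) and the mean standardised profile of the 10. They were Hlcs (0.978), Sema5b (0.977), Cttnbp2 (0.976), Polr3b (0.974) and Gpr162 (0.966). All 5 were highest in SstRed replicate 2, at 4.84 to 65.4 TPM. Of the fixed lists, Neu4 (0.951) ranked 13 and Pcdh15 (0.944) ranked 19 among 11360 genes. These values describe 8 libraries that share depth and sort.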

How the data were processed

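RNA of about 1000 sorted cells per library was amplified with a SMARTer kit and sequenced, per the labels' protocols. Per the file headers, each deposited file gives an estimated count and a TPM value per RefSeq transcript; the columns have the names kallisto writes. Tools named in the submitters' processing notes are kallisto 0.43.0 and, with a role not given in the sources used here, BWA 0.7.12; the build is mm10. The deposited TPM values are per transcript length and sum to 1 fixed total, which hides depth. Of 30404 targets, 29405 were named from the RefSeq table of GRCm38.p6, 142 from GENCODE, and 857 kept their accession, which gave 21375 genes. Expected counts were summed per gene and rounded.

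The main test was edgeR 4.0.16 (quasi-likelihood, TMM, default filter by population) in R 4.3.3 with terms for age class and population, on 11370 genes, with Benjamini-Hochberg adjusted p under 0.05 as the threshold. SEs come from the F statistic. limma 3.58.1 and DESeq2 1.42.0 were alternatives. The script was tested on simulated data. Each library came from a different mouse. Limits at 3 reads and the exact interval hold for counting error alone, because PCR copies are not separate molecules. Replicate numbers do not pair the libraries. All 10 genes were named; from other lists, the 3 with the highest mean TPM were named, except 1 that is not reported here, and further ones after their values were seen. Genes, lists and tests were chosen with earlier results of these data known.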

Additional observations from a re-analysis of the deposited data

Results flagged for a closer look

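1 library stood far from the other 3 of its population in 14 of 22 groups of 4 values checked (the 10 genes and their sum in each population). A chance rate of about 5% holds for normally distributed values. The values checked were TPM without a log, some listed at 0, so that rate does not apply to them. The share flagged among all genes was not tested, so the 14 are given as a description. The genes also share libraries, so the 14 are not independent.

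SstRed replicate 2 was far above the other SstRed libraries for Cspg5 (522 TPM, others 59.2 to 137), Olig1 (1279 TPM, others 22.9 to 161), Olig2 (323 TPM, others 0.280 to 25.1), Sox10 (208 TPM, others 16.5 to 47.1), Gpr17 (280.2 TPM, others 0.899 to 18.0), Vcan (37.7 TPM, others 1.06 to 3.83) and the sum of the 10 genes (3287 TPM, others 202 to 596).

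PkcdRed replicate 1 was far above the other PkcdRed libraries for Cspg5 (267 TPM, others 13.97 to 50.2), Olig1 (471 TPM, others 0.877 to 41.7), Olig2 (39.1 TPM, others 0 to 5.65), Lhfpl3 (29.9 TPM, others 0) and the sum (941 TPM, others 87.2 to 119). Vcan met the same criterion in PkcdRed replicate 1 (0.0605 TPM on 3 reads, others listed at 0), but those zeros allow up to 0.114, 1.46 and 0.927 TPM, so replicate 1 is not shown to lie above them.

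PkcdRed replicate 3 was far above the other PkcdRed libraries for Gpr17 (26.0 TPM, others 0 to 2.18).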

How the results depend on the processing

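Of 204 refits of the 10 genes' difference between populations, 196 kept sign and side of the threshold, 7 passed it and 1 turned sign; of 176 refits by age class the numbers were 158, 7 and 11. The turned value between populations was Gpr17 in older mice only (0.68). By age class they were Pdgfra after thinning to the shallowest library (0.18), Cspg4 in limma on log2(TPM + 1) and log2(TPM + 0.1) (0.038 and 0.037), and fits without 1 library: Cspg4 -0.58 to 0.24 (above 0 without PkcdRed replicate 4 and SstRed replicates 2 and 4), Gpr17 -3.69 to 1.89 (above 0 without SstRed replicates 2, 3 and 4) and Ptprz1 -0.58 to 0.076 (above 0 without SstRed replicates 2 and 4). The cause was not tested.

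Between populations 0 of the 10 genes were called in edgeR, against 3 with no filter, 2 in DESeq2, 1 in limma on log2(TPM + 1) and 0 to 1 without 1 library (Lhfpl3 without PkcdRed replicate 1, where its PkcdRed libraries are all at 0). All genes called numbered 32, against 271 with no filter, 457 in DESeq2, 132 and 69 in limma on log2(TPM + 1) and log2(TPM + 0.1), 0 in younger or older mice only (734 and 847 at an unadjusted p under 0.05), and 10 to 52 without 1 library (15, 21, 10 and 17 without PkcdRed replicates 1 to 4, and 52, 10 and 12 without SstRed replicates 1, 3 and 4). By age class 0 of the 10 were called, against 4 with no filter and 3 in DESeq2. All genes called numbered 7, against 255 with no filter, 2 at 10 CPM in 4 libraries, 576 in DESeq2, 0 in limma-voom (898 unadjusted), 62 and 14 in limma on log2(TPM + 1) and log2(TPM + 0.1), and 0 to 1 without 1 library. The interaction called 0 of the 10, and 1 with no filter.

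The ratio of summed TPM, PkcdRed over SstRed, was 0.281 (0.0963 to 0.782 without 1 library). With the replicate number as a block, 0 of the 10 genes and 24 of all genes were called between populations. Same-numbered libraries deviated together with r of 0.0765, 0.124, 0.0614 and 0.174 from their population means, and 2 of 4 matched their own number best, so the numbers are not taken as pairs. Vcan could not be fitted where it missed the filter (10 CPM in 4 libraries, thinning, older mice only, and without SstRed replicate 1 or 2). Depth limits the 18-week PkcdRed libraries most, where 1 read was worth up to 1.04 CPM.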
